A study of Mus musculus with 77 samples.

Results

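The 9 genes described here move iron across membranes or carry it in blood: Slc40a1, Slc11a2, Slc39a14, Tfr2, Trf, Cp, Steap3, Slc25a37 and Slc25a28. They were chosen by name, for the known roles of their proteins, from the 25266 genes of the count tables. All 9 passed the filter on low counts, as did 10696 genes in all. Their mRNA and its translation were followed in livers of adult male C57BL/6J mice with whole-body knockout of Aco1, which encodes iron regulatory protein 1 (IRP1), or of Ireb2, which encodes IRP2, and in the matched controls of each line. The 8 groups were Aco1+/+, Aco1-/-, Ireb2+/+ and Ireb2-/- livers taken at ZT5 or ZT12 (ZT, Zeitgeber time, hours after lights on), with 3 mice in each. All mice were kept under a light-dark cycle with free access to food. Each of the 24 livers gave 1 ribo-seq library of ribosome-protected fragments (RPFs), the stretches of mRNA shielded by translating ribosomes, and 1 total RNA library from the undigested lysate. The knockouts lack the protein in every tissue, so that an effect in liver need not arise in liver.

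Iron leaves a cell through ferroportin (Slc40a1), the one known iron exporter of mammals, after which the ferroxidase ceruloplasmin (Cp) oxidises it so that transferrin (Trf) can bind it in plasma. Hepatocytes make and secrete both plasma proteins. Transferrin receptor 2 (Tfr2) acts in hepatocytes mainly as a sensor of transferrin-bound iron upstream of hepcidin, the hormone that removes ferroportin from the membrane. In endosomes Steap3 reduces the iron released from transferrin, and Slc11a2 (DMT1) passes it to the cytosol. Slc39a14 (ZIP14) takes up iron that is not bound to transferrin, and the mitoferrins Slc25a37 and Slc25a28 carry iron into mitochondria. Some Slc40a1 transcripts hold an iron responsive element (IRE) in the 5′ UTR, where a bound IRP blocks translation, and some Slc11a2 transcripts hold one in the 3′ UTR, where a bound IRP is thought to stabilise the mRNA.

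The levels below are CDS counts scaled to the library total (CPM), after upper-quartile scaling over all 48 libraries, and translation efficiency (TE) is the log2 of the RPF/RNA ratio of a mouse. A TE of 0 has no absolute meaning, because its zero is set by the scaling. CDS counts ran from 852293 to 3993492 in RNA libraries and from 2448915 to 13439600 in RPF libraries. The lowest RNA total belonged to Aco1-/- replicate 1 at ZT12. Of the gene each line targets, Aco1 RPFs were between 74.8 and 123.2 CPM in the 6 Aco1-/- livers against 347.1 to 591 CPM in the 6 Aco1+/+ livers, and Ireb2 RPFs were between 32.5 and 41.2 CPM in Ireb2-/- against 62.3 to 81.4 CPM in Ireb2+/+ livers. RNA of the targeted gene was still present, at between 114.3 and 215 CPM for Aco1 in Aco1-/- and between 98.9 and 162 CPM for Ireb2 in Ireb2-/- livers. The 8 hepatocyte markers examined summed to between 99500 and 157570 CPM in RNA, and the 10 Kupffer cell markers to between 382 and 630 CPM. In whole liver, fewer cells of a type cannot be told apart from less RNA in each of them.

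Slc40a1 (ENSMUSG00000025993, chr1:45908070-45926532 in GRCm38) was the member whose translation differed between genotypes. In Aco1+/+ livers at ZT12 its TE was −0.67, −0.44 and −0.23, and in Aco1-/- livers at the same time it was −0.02, 0.38 and 0.42. The groups did not overlap, and the difference was 0.74 on the log2 scale (SE 0.15, adjusted p = 0.0171, edgeR), a 1.66-fold higher TE. At ZT5 the TE was −0.13, 0.17 and 0.23 in Aco1+/+ and 0.45, 0.62 and 0.65 in Aco1-/- livers. These groups did not overlap either, but the difference of 0.48 (SE 0.15, adjusted p = 1, edgeR) did not pass the threshold. Averaged over both timepoints, a comparison chosen after the data were seen, the difference was 0.61 (SE 0.10, adjusted p = 0.00563, edgeR).

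The call at ZT12 depended on single mice and on how the libraries were fitted. Without Aco1+/+ replicate 1 at ZT12 the difference at that time was 0.63 (adjusted p = 0.305, edgeR), without Aco1+/+ replicate 2 it was 0.73 (adjusted p = 0.138), and without Aco1-/- replicate 2 it was 0.69 (adjusted p = 0.0517). It was also lost in the first sequencing run alone (0.77, adjusted p = 0.0876) and in a fit of only the 6 mice compared (0.73, adjusted p = 0.215). With the 2 libraries of a mouse not paired, the difference was 0.74 (SE 0.52, adjusted p = 1, edgeR), and limma on the ratio of each mouse gave 0.71 with an adjusted p of 0.723. The average over timepoints missed the threshold without Aco1+/+ replicate 1 at ZT12 (0.56, adjusted p = 0.0752, edgeR) and without Aco1+/+ replicate 1 at ZT5 (0.55, adjusted p = 0.0846), and it was also lost in the unpaired fit and in limma, with values of 0.60 in both.

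Slc40a1 RPFs were 154, 143.5 and 263 CPM in Aco1+/+ and 288, 369 and 444 CPM in Aco1-/- livers at ZT5, with no overlap. At ZT12 they were 100.5, 130.2 and 156 CPM in Aco1+/+ and 131.5, 356 and 403 CPM in Aco1-/- livers, and here Aco1-/- replicate 1 lay among the controls. The differences were 0.98 (SE 0.39, adjusted p = 1, edgeR) at ZT5 and 1.20 (SE 0.39, adjusted p = 0.261) at ZT12, neither past the threshold. Without Aco1-/- replicate 1 the difference at ZT12 was 1.56 (adjusted p = 0.018, edgeR), without Aco1-/- replicate 3 it was 0.92 (adjusted p = 0.27), and without Aco1+/+ replicate 1 it was 1.05 (adjusted p = 0.594). Without Aco1-/- replicate 1 at ZT12 the difference averaged over timepoints went from 1.09 (adjusted p = 0.304, edgeR) to 1.27 (adjusted p = 0.00318), and it did not pass in the other 11 fits with 1 mouse left out (0.95 to 1.25, adjusted p up to 0.661).

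Slc40a1 RNA was 168, 127 and 224 CPM in Aco1+/+ and 212, 240.0 and 282 CPM in Aco1-/- livers at ZT5. At ZT12 it was 160, 177 and 183 CPM in Aco1+/+ and 133.3, 272 and 302 CPM in Aco1-/- livers. The groups overlapped at both times, with differences of 0.51 (SE 0.26, adjusted p = 1, edgeR) and 0.47 (SE 0.26, adjusted p = 0.715). The average of 0.49 (SE 0.18, adjusted p = 0.864) became 0.62 (adjusted p = 0.0188, edgeR) without Aco1-/- replicate 1 at ZT12. Ferroportin is abundant in Kupffer cells as well as in hepatocytes. The 10 Kupffer cell markers summed to between 460 and 630 CPM in Aco1-/- and between 453 and 557 CPM in Aco1+/+ RNA at ZT5. At ZT12 the sums were between 440.5 and 542 CPM against 454 and 512 CPM. Of the 10, 0 passed the test between genotypes in RNA, RPF or TE of either line. At most 0.299% of all genes passed in any of these comparisons, so 0 of 10 is near the share of all genes. The 5 erythroid markers present in the tables summed to less in Aco1-/- than in Aco1+/+ livers at ZT5, with no overlap: between 8.14 and 20.0 CPM against 33.0 and 68.3 CPM in RNA, and between 12.7 and 15.9 CPM against 25.5 and 71.1 CPM in RPF. At ZT12 the Aco1-/- livers ranged from 2.99 to 95.2 CPM in RNA, around the 26.1 to 57.2 CPM of Aco1+/+ livers. Of the 4 erythroid markers tested 0 passed between these genotypes, where at most 0.299% of all genes did. The part of the erythroid markers in the Slc40a1 differences was not tested.

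**Figure D1:**
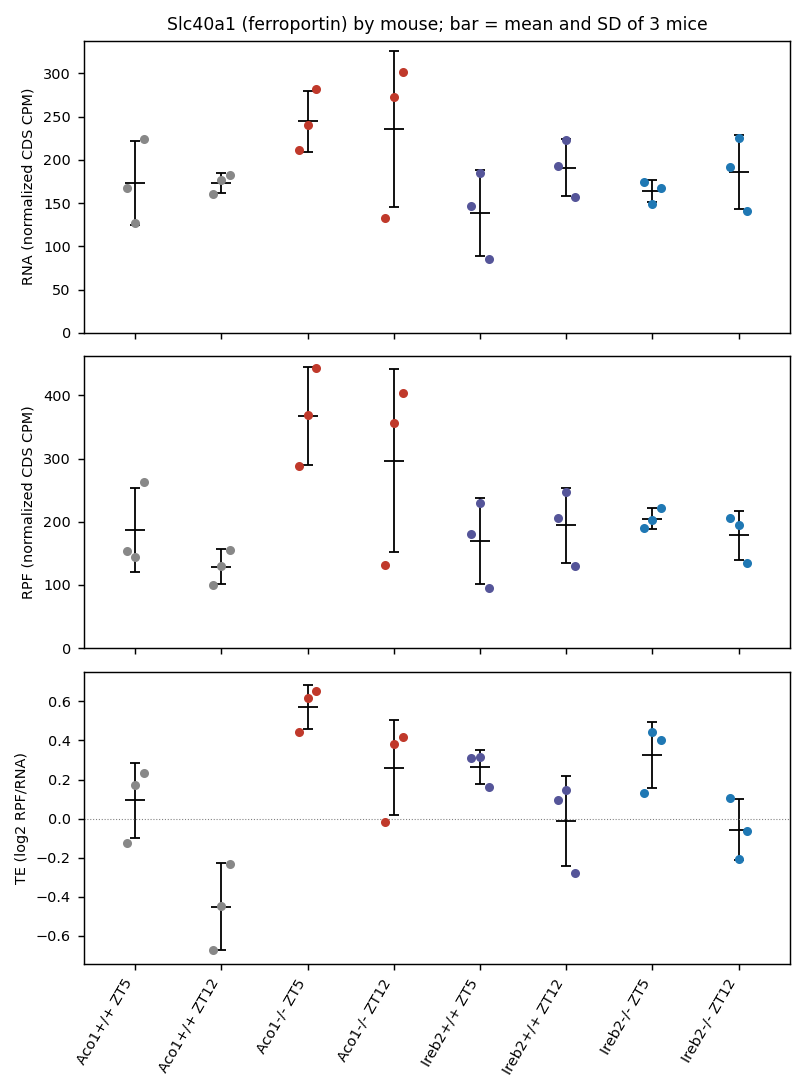
Slc40a1 in the 24 livers: normalized CDS CPM of RNA (top) and RPF (middle), and TE as log2 RPF/RNA (bottom), for each of the 8 groups on the horizontal axis. Points are mice, and bars give the mean and SD of 3 mice. TE in Aco1-/- livers lay above that of Aco1+/+ livers of the same time (means 0.57 against 0.09 at ZT5, and 0.26 against −0.45 at ZT12), whereas Ireb2-/- and Ireb2+/+ livers overlapped.

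Slc40a1 TE at ZT12 was 0.10, 0.15 and −0.28 in Ireb2+/+ and 0.10, −0.21 and −0.06 in Ireb2-/- livers, and at ZT5 it was 0.31, 0.32 and 0.16 in Ireb2+/+ and 0.13, 0.44 and 0.40 in Ireb2-/- livers. The genotypes overlapped at both times, with differences of −0.06 (SE 0.12) at ZT12 and 0.05 (SE 0.12) at ZT5. RPFs in Ireb2-/- livers lay between 134.7 and 222 CPM and those in Ireb2+/+ livers between 95.5 and 247 CPM. Whether the effects of the 2 knockouts differ was tested in 1 fit over the 8 groups, also chosen after the data were seen. Averaged over timepoints, the Aco1 effect on Slc40a1 TE exceeded the Ireb2 effect by 0.61 (SE 0.14, adjusted p = 0.16, edgeR), which did not pass. It passed without Aco1-/- replicate 1 at ZT12 (0.66, adjusted p = 0.0416) and without Ireb2+/+ replicate 3 at ZT12 (0.67, adjusted p = 0.0407). In this fit 0 of the 9 members passed in RNA, RPF or TE, where 0.00935%, 0.112% and 0.0187% of all genes did, and 1 member in each, Slc40a1 in TE and RPF and Trf in RNA, had an unadjusted p under 0.05.

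Ordered by mean TE, the Aco1-/- livers at ZT5 came first (0.57 ± 0.11, SD, n = 3) and the Aco1+/+ livers at ZT12 last (−0.45 ± 0.22). The first group did not overlap with the one below it, Ireb2-/- at ZT5 (0.33 ± 0.17), nor the last with the one above it, Ireb2-/- at ZT12 (−0.06 ± 0.16). The 6 groups from second to next-to-last place formed a run in which each overlapped its neighbour. The 2 control groups at ZT12 had means of −0.45 (Aco1+/+) and −0.01 (Ireb2+/+), a difference that was not tested.

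No member other than Slc40a1 passed the test between genotypes in the fits of a whole line. With only the 6 mice compared, 1 member, not named here, passed in TE of the Ireb2 line at ZT12. In the fit of the whole line 0 members had an unadjusted p under 0.05 in that comparison. In the Aco1 line 0 of 9 passed in RNA at ZT5 and 0 at ZT12, against 0% and 0.00935% of all 10696 genes tested. In RPF 0 and 0 passed, against 0.00935% and 0.299%, and in TE 0 passed at ZT5 and 1, Slc40a1, at ZT12, against 0.00935% and 0.0935%. For Ireb2-/- against Ireb2+/+ 0 passed in any of the 6 comparisons, against 0.00935% and 0.0187% of all genes in RNA, 0.0654% and 0.028% in RPF, and 0.00935% and 0% in TE, each at ZT5 and ZT12. Averaged over timepoints, Slc40a1 TE in the Aco1 line was the 1 call, and the shares of all genes were 0.00935% in RNA, 0.0561% in RPF and 0.0187% in TE in that line and 0.028%, 0.234% and 0.00935% in the Ireb2 line. Of the averages that did not pass, an unadjusted p under 0.05 was found for Slc40a1 in RNA and RPF of the Aco1 line and for Trf in RNA of the Ireb2 line. DESeq2 also gave 0 member calls wherever edgeR gave 0 between genotypes. Between genotypes at a single time, unadjusted p-values were under 0.05 for 5 member values in the 6 comparisons of the Aco1 line beside the call, and for 3 in the Ireb2 line.

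The members with such uncorrected differences are given by their values. Steap3 RPFs at ZT12 were 17.2, 14.5 and 21.3 CPM in Aco1+/+ and 24.2, 26.9 and 22.0 CPM in Aco1-/- livers (0.46, SE 0.18, adjusted p = 0.29, edgeR). Cp RNA at ZT5 was 1331, 1325 and 1512 CPM in Aco1+/+ and 1696, 1767 and 1581 CPM in Aco1-/- livers (0.28, SE 0.13, adjusted p = 1). Slc11a2 RPFs at ZT12 were 23.8, 22.5 and 25.1 CPM in Ireb2+/+ and 28.1, 31.5 and 30.3 CPM in Ireb2-/- livers (0.33, SE 0.14, adjusted p = 0.592, edgeR). Trf RNA at ZT12 was 15892, 15165 and 16953 CPM in Ireb2+/+ and 17189, 20242 and 19790 CPM in Ireb2-/- livers (0.25, SE 0.11, adjusted p = 1). The 8 hepatocyte markers also summed to more in Ireb2-/- than in Ireb2+/+ livers at ZT12, with no overlap in RNA or RPF. The sums were between 138127 and 157570 CPM against 118295 and 130036 CPM in RNA. In RPF they were between 223660 and 254611 CPM against 197832 and 216756 CPM. Their part in the Slc11a2 and Trf differences was not tested. Cp TE at ZT5 was 0.76, 0.71 and 0.91 in Ireb2+/+ and 0.45, 0.70 and 0.65 in Ireb2-/- livers (−0.19, SE 0.08, adjusted p = 0.694, edgeR), and the difference was −0.11 (adjusted p = 0.937) without Ireb2-/- replicate 1. In all 5 member values the genotypes did not overlap, yet none passed the adjustment over all genes.

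The median size of the log2 difference over the 9 members, averaged over timepoints, was 0.14 in RNA, 0.16 in RPF and 0.08 in TE in the Aco1 line, beside 0.13, 0.14 and 0.14 over all genes tested. The corresponding medians of the Ireb2 line were 0.07, 0.08 and 0.07, beside 0.13, 0.12 and 0.13.

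**Figure D2:**
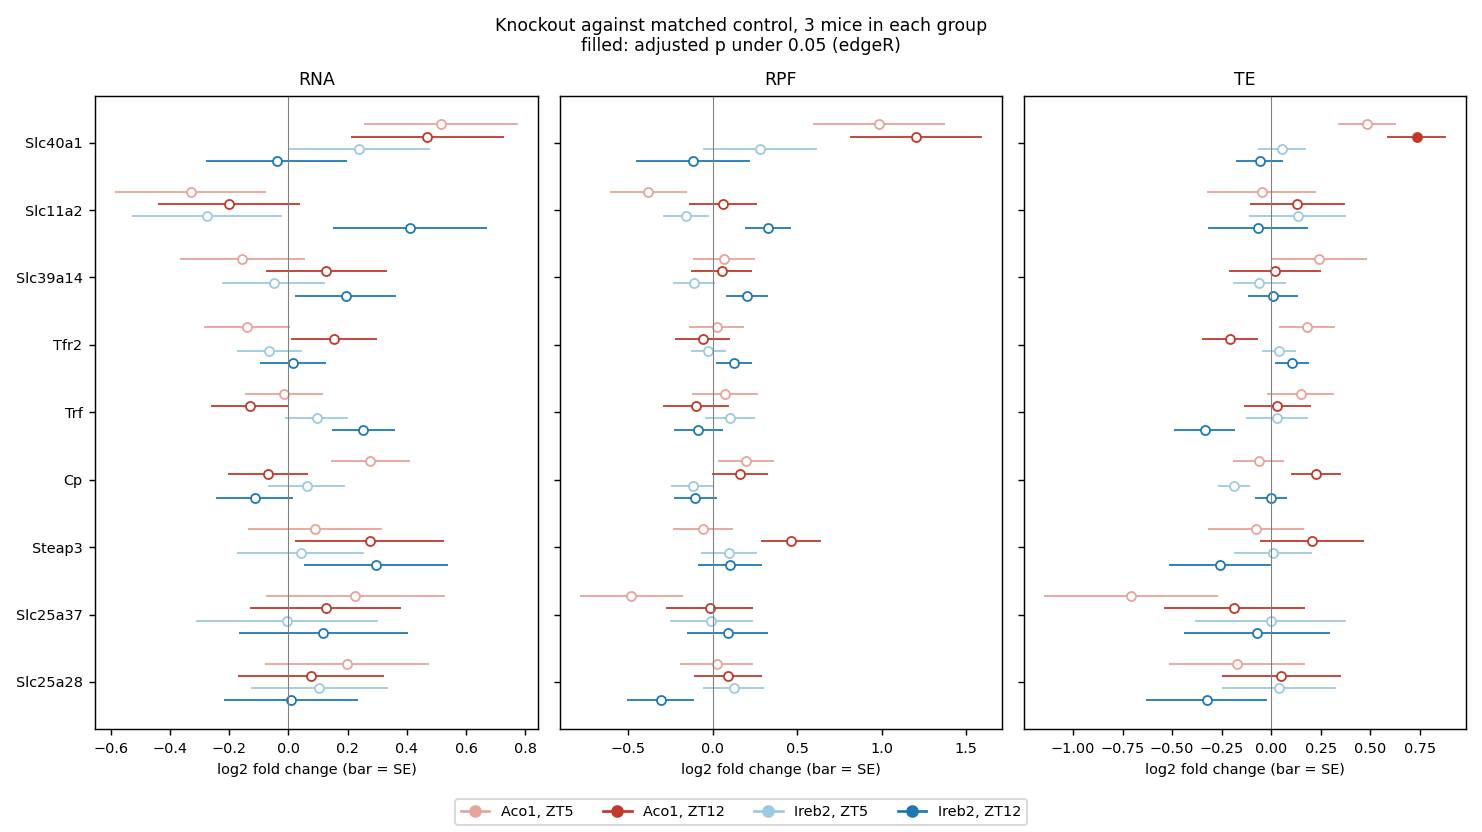
Log2 fold changes of knockout against matched control for the 9 members in RNA, RPF and TE, at ZT5 and ZT12 of each line, with 3 mice in each group. Bars are SE, and filled points passed an adjusted p of 0.05 (edgeR). The 1 filled point is Slc40a1 TE in the Aco1 line at ZT12, at 0.74.

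The genotype effect of no member was shown to depend on the time of day. For the difference between the effects at ZT12 and ZT5, 0 of 9 members passed in RNA, RPF or TE of either line. Of all genes 0%, 0% and 0.028% passed in the Aco1 line and 0% in each measure of the Ireb2 line. DESeq2 gave 0 members as well, and 1 member had an unadjusted p under 0.05, Slc11a2 in RPF of the Ireb2 line, with a difference of 0.48 (SE 0.19, adjusted p = 1, edgeR) that was 0.26 (adjusted p = 0.996) in the first sequencing run alone. For Slc40a1 TE in the Aco1 line the difference was 0.25 (SE 0.21, adjusted p = 0.993).

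Between the timepoints members passed in RNA and in RPF, and 0 in TE. The 4 comparisons of ZT12 with ZT5, 1 in each genotype, rest on separate mice, but they use the same mice as the comparisons of genotypes. In RNA 2 of 9 members passed in Aco1+/+ livers, 3 in Aco1-/-, 0 in Ireb2+/+ and 1 in Ireb2-/-, against 7.05%, 5.15%, 2.29% and 2.77% of all genes. In RPF the counts were 2, 2, 1 and 3 members against 6.64%, 12.1%, 7.53% and 5.73%. In TE 0 members passed in each genotype, by edgeR and by DESeq2, against 0.0187%, 0.15%, 0.533% and 0.00935% of all genes, and 3, 0, 1 and 1 members had an unadjusted p under 0.05.

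With both genotypes of a line averaged, a comparison chosen after the data were seen, 6 members passed in RNA of the Aco1 line (4 rose, 2 fell) and 2 in that of the Ireb2 line (1 rose, 1 fell), against 14.4% and 8.28% of all genes. In RPF 3 passed in the Aco1 line (2 rose, 1 fell) and 4 in the Ireb2 line (3 rose, 1 fell), against 22.2% and 17.2%. In TE 0 passed in both lines against 0.374% and 0.598% of all genes, with an unadjusted p under 0.05 for 3 and 2 members. DESeq2 called 1 member in TE of the Aco1 line, Slc40a1. The median size of the members' change was 0.52 in RNA and 0.42 in RPF in the Aco1 line, beside 0.24 and 0.26 over all genes, and 0.33 and 0.16 in the Ireb2 line, beside 0.20 and 0.20. Of the 8 hepatocyte markers 1 rose in RNA and 3 in RPF between the timepoints in each line. Of the 10 Kupffer cell markers Cd5l fell in RPF of the Aco1 line. Of the 6 endothelial markers Clec4g fell in RPF of both lines (−0.47 and −0.23), and of the 6 stellate cell markers Des fell in RPF of both (−0.60 and −0.76) and in RNA of the Ireb2 line (−1.19). Their part in the members' changes was not tested.

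**Figure D3:**
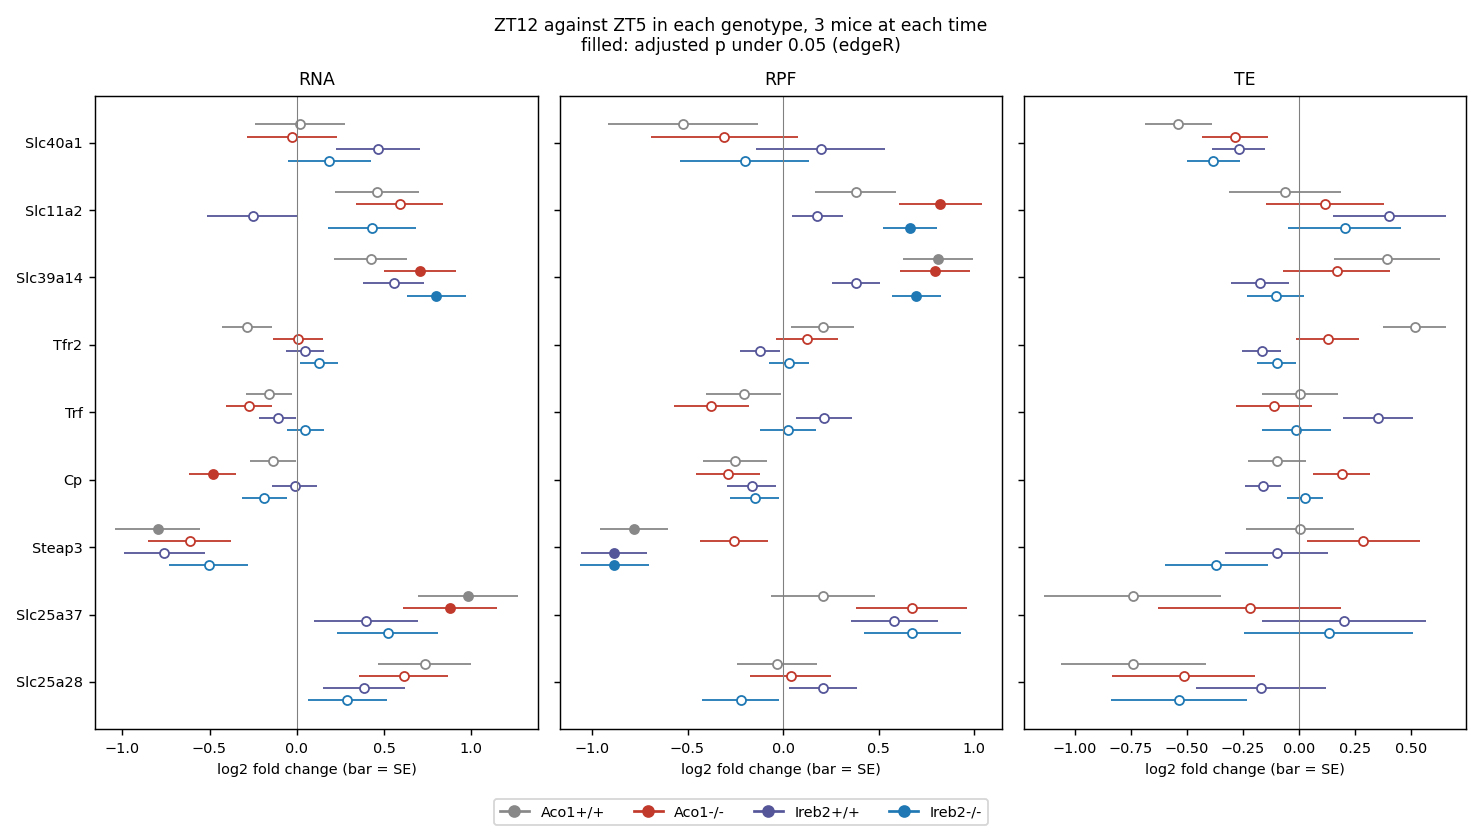
Log2 fold changes of ZT12 against ZT5 for the 9 members in RNA, RPF and TE within each of the 4 genotypes, with 3 mice at each time. Bars are SE, and filled points passed an adjusted p of 0.05 (edgeR). Slc39a14 lies to the right of 0 and Steap3 to the left in RNA and RPF of all 4 genotypes, and no point is filled in TE.

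Slc39a14 (ENSMUSG00000022094, chr14:70303467-70351452), the importer of iron that is not bound to transferrin, rose from ZT5 to ZT12. Its RPFs were 109.6, 107.3 and 144.2 CPM at ZT5 and 260, 192 and 178 CPM at ZT12 in Aco1+/+ livers. In Aco1-/- livers they were 100.7, 131.03 and 145.5 CPM at ZT5 and 186, 252 and 215 CPM at ZT12. In Ireb2+/+ livers they were 123.7, 128.5 and 143.7 CPM and then 158.5, 146.7 and 210.1 CPM, and in Ireb2-/- livers 123.9, 117.8 and 124.5 CPM and then 214.4, 184.6 and 195.0 CPM. The timepoints did not overlap in any of the 4 genotypes. The change was 0.81 (SE 0.18, adjusted p = 0.0107, edgeR) in Aco1+/+, 0.80 (SE 0.18, adjusted p = 0.00841) in Aco1-/-, 0.70 (SE 0.13, adjusted p = 0.00252) in Ireb2-/- and 0.38 (SE 0.13, adjusted p = 0.0699) in Ireb2+/+ livers.

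Averaged over genotypes, Slc39a14 RPFs rose by 0.80 (SE 0.13, adjusted p = 0.000257, edgeR) in the Aco1 line and by 0.54 (SE 0.09, adjusted p = 0.000275) in the Ireb2 line, and both calls held with any 1 mouse left out. The rise in Aco1+/+ alone was lost without replicate 1 at ZT12 (0.63, adjusted p = 0.0796, edgeR), replicate 1 at ZT5 (0.75, adjusted p = 0.0714) or replicate 2 at ZT5 (0.74, adjusted p = 0.0667). That in Aco1-/- was lost without replicate 1 at ZT5 (0.66, adjusted p = 0.0571), and that in Ireb2+/+ passed without replicate 2 at ZT12 (0.48, adjusted p = 0.0287) and was 0.21 (adjusted p = 0.355) without replicate 3 at ZT12.

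Slc39a14 RNA also rose. It went from 64.9, 54.6 and 65.25 CPM to 106.4, 107.3 and 108.8 CPM in Ireb2-/- livers, a change of 0.80 (SE 0.17, adjusted p = 0.00785, edgeR) with no overlap, which was lost without replicate 2 at ZT5 (0.72, adjusted p = 0.0823). In Aco1-/- livers it went from 63.45, 62.8 and 63.2 CPM to 57.0, 92.6 and 148.1 CPM. Here the ZT12 group held both the lowest and the highest value of the 6 mice, and the change of 0.71 (SE 0.21, adjusted p = 0.0488) was 0.31 (adjusted p = 0.445, edgeR) without replicate 3 at ZT12. It was also lost without replicate 2 at ZT12 (0.79, adjusted p = 0.0526) or without replicate 1, 2 or 3 at ZT5 (0.70 to 0.71, adjusted p up to 0.15), and in the first run alone (0.60, adjusted p = 0.133) and with only the 6 mice compared (0.70, adjusted p = 0.187). In Aco1+/+ and Ireb2+/+ livers the changes were 0.42 (SE 0.21, adjusted p = 0.26) and 0.56 (SE 0.17, adjusted p = 0.0962), and the latter passed without Ireb2+/+ replicate 3 at ZT5 (0.68, adjusted p = 0.033) and was 0.29 (adjusted p = 0.446) without Ireb2+/+ replicate 3 at ZT12. Averaged over genotypes RNA rose by 0.56 (SE 0.15, adjusted p = 0.011, edgeR) in the Aco1 line and by 0.68 (SE 0.12, adjusted p = 0.000608) in the Ireb2 line. Both calls held with any 1 mouse left out, but without Aco1-/- replicate 3 at ZT12 the rise in the Aco1 line was 0.36 (adjusted p = 0.0304, edgeR). TE changes were 0.39, 0.17, −0.17 and −0.10 in Aco1+/+, Aco1-/-, Ireb2+/+ and Ireb2-/- livers, none past the threshold. Of the 13 acute phase genes examined, 0 rose and 4 fell in RPF averaged over genotypes of the Aco1 line, and 1 rose and 0 fell in that of the Ireb2 line, where 22.2% and 17.2% of all genes passed. Their part in the Slc39a14 changes was not tested.

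Slc11a2 (ENSMUSG00000023030, chr15:100387898-100424209), which passes iron from endosomes to the cytosol, rose in RPF. Its CDS counts were low, between 47 and 313 RPF and between 19 and 74 RNA counts a library. RPFs went from 16.7, 14.2 and 19.75 CPM to 40.9, 26.9 and 21.3 CPM in Aco1-/- and from 21.4, 17.5 and 18.3 CPM to 28.1, 31.5 and 30.3 CPM in Ireb2-/- livers. In both knockouts the timepoints did not overlap, and the changes were 0.82 (SE 0.22, adjusted p = 0.0191, edgeR) and 0.66 (SE 0.14, adjusted p = 0.00688). In Aco1+/+ they went from 24.1, 20.2 and 21.4 CPM to 29.1, 24.1 and 32.8 CPM, and in Ireb2+/+ from 19.4, 20.3 and 23.7 CPM to 23.8, 22.5 and 25.1 CPM. The control timepoints overlapped, with changes of 0.38 (SE 0.21, adjusted p = 0.325) and 0.18 (SE 0.13, adjusted p = 0.477). That the knockouts passed and the controls did not is no difference between them by test, as the differences of 0.44 and 0.48 had adjusted p-values of 0.91 and 1 (edgeR).

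Averaged over genotypes, Slc11a2 RPFs rose by 0.60 (SE 0.15, adjusted p = 0.00837, edgeR) in the Aco1 line and by 0.42 (SE 0.10, adjusted p = 0.0046) in the Ireb2 line, with any 1 mouse left out. The rise in Aco1-/- was lost without replicate 1 at ZT12 (0.51, adjusted p = 0.128), replicate 1 at ZT5 (0.81, adjusted p = 0.0799) or replicate 2 at ZT5 (0.72, adjusted p = 0.0788), and that in Ireb2-/- without replicate 2 at ZT5 (0.60, adjusted p = 0.0607). RNA averaged over genotypes rose by 0.52 (SE 0.17, adjusted p = 0.0376, edgeR) in the Aco1 line, where the call was lost without any one of Aco1+/+ replicates 1 or 3 at ZT12, Aco1+/+ replicates 2 or 3 at ZT5, Aco1-/- replicate 1 at ZT12 or Aco1-/- replicates 2 or 3 at ZT5 (0.45 to 0.55, adjusted p up to 0.104), and in the first run alone (0.30, adjusted p = 0.478). With all count columns in place of the CDS column, which adds the UTRs and a column of unknown content, it was 0.15 (adjusted p = 0.493). The Ireb2 line gave 0.09 (SE 0.18, adjusted p = 0.833).

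Steap3 (ENSMUSG00000026389, chr1:120226414-120271081), the endosomal ferrireductase, fell from ZT5 to ZT12. RPFs were 30.5, 28.4 and 32.7 CPM at ZT5 and 17.2, 14.5 and 21.3 CPM at ZT12 in Aco1+/+ livers. They were 38.0, 30.5 and 28.8 CPM and then 16.8, 20.5 and 15.8 CPM in Ireb2+/+ livers, and 26.3, 40.5 and 36.0 CPM and then 16.1, 22.9 and 17.5 CPM in Ireb2-/- livers. The timepoints did not overlap in these 3 genotypes. The changes were −0.78 (SE 0.18, adjusted p = 0.0119, edgeR), −0.89 (SE 0.17, adjusted p = 0.00316) and −0.88 (SE 0.18, adjusted p = 0.00589). In Aco1-/- livers RPFs were 23.6, 33.9 and 30.9 CPM and then 24.2, 26.9 and 22.0 CPM, which overlapped, and the change was −0.26 (SE 0.18, adjusted p = 0.364). The difference of 0.52 between the changes in Aco1-/- and Aco1+/+ did not pass (SE 0.25, adjusted p = 0.881, edgeR).

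Averaged over genotypes, Steap3 RPFs fell by 0.88 on the log2 scale (SE 0.13, adjusted p = 6.39e-05, edgeR) in the Ireb2 line and by 0.52 (SE 0.13, adjusted p = 0.00646) in the Aco1 line, with any 1 mouse left out. The Aco1 line missed the threshold in the first sequencing run alone (−0.44, adjusted p = 0.1). Within Aco1+/+ the fall was lost without replicate 1 at ZT12 (−0.76, adjusted p = 0.0541), replicate 2 at ZT12 (−0.66, adjusted p = 0.0764) or replicate 1 at ZT5 (−0.78, adjusted p = 0.0567), and in the first run alone (−0.79, adjusted p = 0.0673), and within Ireb2-/- without replicate 2 at ZT5 (−0.74, adjusted p = 0.0591). RNA fell by 0.71 (SE 0.17, adjusted p = 0.0035, edgeR) in the Aco1 line, with any 1 mouse left out. In the Ireb2 line it fell by 0.63 (SE 0.16, adjusted p = 0.0129), a call that was lost without Ireb2-/- replicate 1 at ZT12 (−0.57, adjusted p = 0.0535) or replicate 3 at ZT5 (−0.56, adjusted p = 0.0521). In single genotypes the RNA changes were −0.80 (SE 0.24, adjusted p = 0.0367) in Aco1+/+, −0.61 (adjusted p = 0.137) in Aco1-/-, −0.76 (adjusted p = 0.0839) in Ireb2+/+ and −0.50 (adjusted p = 0.29) in Ireb2-/- livers by edgeR. The call in Aco1+/+ was lost with 4 of 6 mice left out in turn, replicates 1 and 2 at each time (−0.87 to −0.67, adjusted p up to 0.251), in the first run alone (−0.78, adjusted p = 0.151) and with DESeq2 (−0.77, adjusted p = 0.0762). In Aco1-/- RNA passed without replicate 1 at ZT5 (−0.83, adjusted p = 0.0379), and in Ireb2+/+ without replicate 2 at ZT12 (−1.11, adjusted p = 0.0266) or in the first run alone (−1.04, adjusted p = 0.0237).

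The mitoferrins had few CDS counts, between 7 and 54 in RNA and between 13 and 66 in RPF for Slc25a37 (ENSMUSG00000034248, chr14:69241848-69285544), and between 13 and 87 in RNA and between 21 and 105 in RPF for Slc25a28 (ENSMUSG00000040414, chr19:43663801-43675006). Slc25a37 RNA was 8.79, 5.87 and 4.44 CPM at ZT5 and 13.7, 10.9 and 14.1 CPM at ZT12 in Aco1+/+ livers, and 7.98, 6.47 and 8.47 CPM and then 14.2, 13.0 and 14.7 CPM in Aco1-/- livers. The timepoints did not overlap in either. The changes were 0.98 (SE 0.28, adjusted p = 0.0281, edgeR) and 0.88 (SE 0.27, adjusted p = 0.0482), and 0.93 (SE 0.20, adjusted p = 0.000931) averaged over genotypes, which held with any 1 mouse left out but not in the first sequencing run alone (0.65, adjusted p = 0.15). With all count columns summed, which adds the 3′ UTR and a column of unknown content, these rises passed but were smaller, 0.58 (adjusted p = 0.0172, edgeR) in Aco1+/+ and 0.61 (adjusted p = 0.000243) averaged. Within Aco1+/+ the call was lost without replicates 1 or 3 at ZT12 or replicates 2 or 3 at ZT5 (0.84 to 0.94, adjusted p up to 0.184) and in the first run alone (0.88, adjusted p = 0.258). Within Aco1-/- it was lost without any one of the 6 mice (0.75 to 0.97, adjusted p up to 0.199), with DESeq2 (0.93, adjusted p = 0.0704), with only the 6 mice (0.88, adjusted p = 0.0825) and in the first run alone (0.42, adjusted p = 0.696). RNA differences of 0.40 (adjusted p = 0.578) in Ireb2+/+ and 0.52 (adjusted p = 0.424) in Ireb2-/- livers did not pass.

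Slc25a37 RPFs averaged over genotypes rose by 0.63 (SE 0.17, adjusted p = 0.0148, edgeR) in the Ireb2 line, from between 3.46 and 4.82 CPM at ZT5 to between 4.95 and 8.55 CPM at ZT12. This call was lost without Ireb2-/- replicate 3 at ZT12 (0.50, adjusted p = 0.0655) and in the first run alone (0.51, adjusted p = 0.0936). In the Aco1 line the change of 0.44 (SE 0.20, adjusted p = 0.123) passed without Aco1-/- replicate 3 at ZT12 (0.54, adjusted p = 0.0489). Slc25a28 RNA rose by 0.67 (SE 0.18, adjusted p = 0.0107, edgeR) in the Aco1 line averaged over genotypes, from between 8.80 and 11.9 CPM to between 12.1 and 23.7 CPM with no overlap of the 6 mice of each time. It missed the threshold without Aco1-/- replicate 3 at ZT12 (0.45, adjusted p = 0.107) and in the first run alone (0.68, adjusted p = 0.1). Its RPFs gave differences of 0.00 (SE 0.15) and −0.01 (SE 0.13) in the Aco1 and Ireb2 lines.

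**Figure D4:**
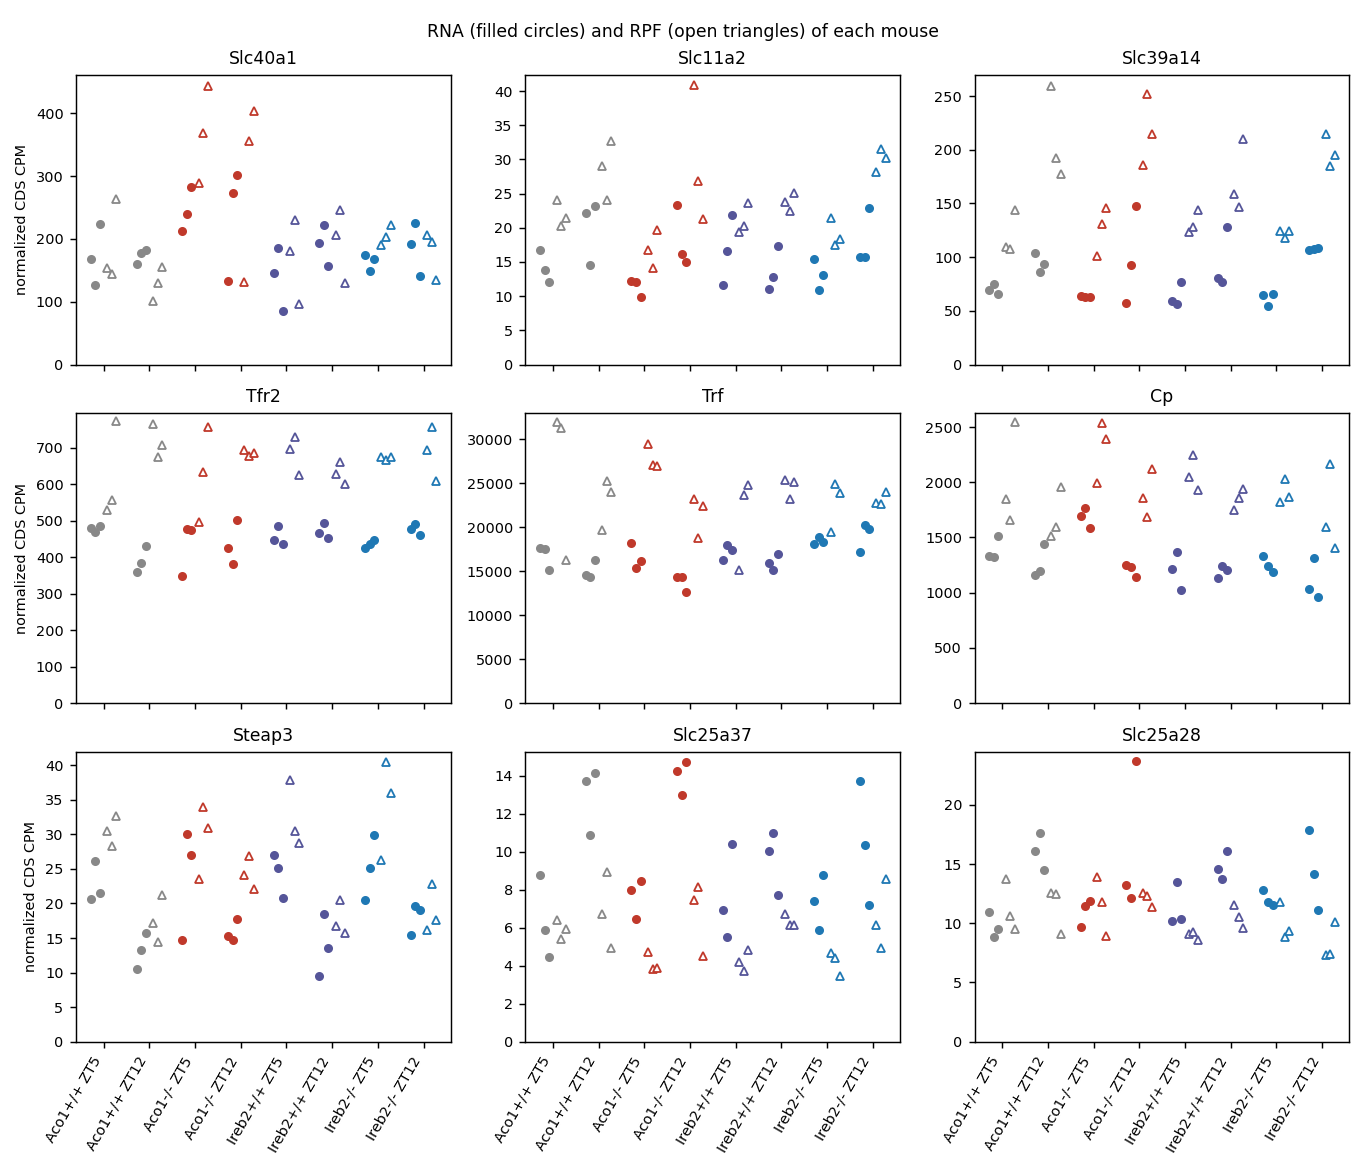
Normalized CDS CPM of RNA (filled circles) and RPF (open triangles) of each mouse for the 9 members, with the 8 groups on the horizontal axis and 3 mice in each, every vertical axis starting at 0. Slc39a14 RPFs were higher and Steap3 RPFs in 3 of 4 genotypes lower in every ZT12 liver than in the ZT5 livers of the same genotype, and Tfr2 RNA stayed between 348 and 501 CPM.

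Of the genes of plasma transport and iron sensing, Cp was the 1 that passed between timepoints. Cp (ENSMUSG00000003617, chr3:19956933-20009750) RNA in Aco1-/- livers went from 1696, 1767 and 1581 CPM at ZT5 to 1246, 1230 and 1140 CPM at ZT12. The timepoints did not overlap, and the change was −0.48 (SE 0.13, adjusted p = 0.0273, edgeR). It was lost with 5 of 6 mice left out in turn, all but replicate 3 at ZT5 (−0.51 to −0.44, adjusted p up to 0.0928), and with only the 6 mice (−0.48, adjusted p = 0.0857). The average over genotypes of the Aco1 line was −0.31 (SE 0.09, adjusted p = 0.0235, edgeR) and was lost without Aco1+/+ replicates 1 or 2 at ZT12, Aco1+/+ replicate 3 at ZT5 or Aco1-/- replicate 2 at ZT5 (−0.29 to −0.28, adjusted p up to 0.074). Cp RPFs changed by between −0.29 and −0.15 in the 4 genotypes, none past the threshold. Of the acute phase genes examined, Fgb (−0.74) and Lbp (−0.64) passed in RNA averaged over genotypes of the Aco1 line, where 14.4% of all genes passed. Their part in the Cp changes was not tested.

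Trf (ENSMUSG00000032554, chr9:103208876-103230286) RNA ranged from 12584 to 20242 CPM over the 24 mice, a span of 1.61-fold, and its RPFs from 15116 to 32031 CPM. Its changes with time lay between −0.27 and 0.05 in RNA and between −0.38 and 0.21 in RPF, none past the threshold. The replicates of Aco1+/+ at ZT5 were far apart in RPF, at 32031, 31258 and 16283 CPM.

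Tfr2 (ENSMUSG00000029716, chr5:137569822-137588081) RNA spanned 1.44-fold over the 24 mice. Its TE in Aco1+/+ livers was 0.14, 0.25 and 0.68 at ZT5 and 1.09, 0.81 and 0.71 at ZT12. The groups did not overlap, and the change of 0.52 (SE 0.14, adjusted p = 0.26, edgeR) did not pass. Nor did it in 5 of 6 fits with 1 mouse left out (0.41 at the lowest, adjusted p up to 0.961) and in 8 of 9 other settings, while it passed with the 6 mice alone (0.52, adjusted p = 0.0195) and without replicate 3 at ZT5 (0.67, adjusted p = 0.0467). In the other genotypes the changes were 0.13 (SE 0.14), −0.16 (SE 0.09) and −0.10 (SE 0.09) in Aco1-/-, Ireb2+/+ and Ireb2-/- livers. The average in the Aco1 line, 0.32 (SE 0.10, adjusted p = 0.172, edgeR), did not pass in any of 8 other settings or in 10 of 12 fits with 1 mouse left out (adjusted p up to 0.479). It passed without Aco1+/+ replicate 3 at ZT5 (0.40, adjusted p = 0.0316) or Aco1-/- replicate 3 at ZT12 (0.38, adjusted p = 0.0095).

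Slc40a1 TE was lower at ZT12 than at ZT5 in every genotype. The values given above did not overlap between the timepoints in any of the 4 genotypes, and the changes were −0.54 (SE 0.15, adjusted p = 0.261, edgeR) in Aco1+/+, −0.28 (SE 0.15, adjusted p = 0.655) in Aco1-/-, −0.27 (SE 0.12, adjusted p = 0.524) in Ireb2+/+ and −0.38 (SE 0.12, adjusted p = 0.821) in Ireb2-/- livers. None of these passed, and the change in Ireb2+/+ was −0.15 (adjusted p = 0.814, edgeR) without replicate 3 at ZT12. Averaged over genotypes, the changes of −0.41 (SE 0.10, adjusted p = 0.0636, edgeR) in the Aco1 line and −0.33 (SE 0.08, adjusted p = 0.0543) in the Ireb2 line did not pass. With 1 mouse left out, 10 of 12 fits in the Aco1 line (adjusted p up to 0.302, edgeR) and 9 of 12 in the Ireb2 line (up to 0.286) did not pass either, nor did 5 of 8 other settings in each line, with an adjusted p of 0.909 and 1 where the 2 libraries of a mouse were not paired. The threshold was crossed with no filter on low counts (adjusted p = 0.0393 and 0.0401, edgeR). DESeq2 crossed it in the Aco1 line (−0.43, adjusted p = 0.0394) and TMM in the Ireb2 line (−0.33, adjusted p = 0.0479). With only the 6 mice compared, the changes in Aco1+/+ (−0.53, adjusted p = 0.0195) and Ireb2-/- (−0.38, adjusted p = 0.0242) passed. Without Aco1-/- replicate 2 or 3 at ZT12 the Aco1 line gave −0.44 in both cases (adjusted p = 0.0497 and 0.0047), and without Ireb2+/+ replicate 2 at ZT12, Ireb2+/+ replicate 3 at ZT5 or Ireb2-/- replicate 1 at ZT5 the Ireb2 line gave −0.37, −0.34 and −0.37 (adjusted p = 0.0497, 0.00142 and 0.0428). Slc40a1 differences between timepoints lay between −0.03 and 0.46 in RNA (SE 0.24 to 0.26) and between −0.52 and 0.20 in RPF (SE 0.34 to 0.39), none past the threshold.

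As a ratio of 2 counts of the same CDS, TE can be set side by side between members. Its mean over the 24 mice was highest for Slc39a14 (0.99 ± 0.28, SD) and then 0.61 ± 0.25 for Slc11a2, 0.59 ± 0.17 for Cp, 0.57 ± 0.20 for Tfr2, 0.51 ± 0.27 for Trf and 0.39 ± 0.26 for Steap3. Slc40a1 followed with 0.12 ± 0.33, Slc25a28 with −0.31 ± 0.43 and Slc25a37 with −0.72 ± 0.50. This order of the means did not hold in every group: in Aco1-/- livers at ZT5 the mean TE of Slc40a1, 0.57, was above that of Slc11a2 (0.56), Tfr2 (0.53), Cp (0.45) and Steap3 (0.35). The means of the 5 members from Slc11a2 to Steap3 differed by less than the SD of Steap3. Slc40a1 had the widest range of RPF levels, a 4.64-fold span over the 24 livers. Next came Slc11a2 (2.89-fold) and Steap3 (2.80-fold), against 1.55-fold for Tfr2, 1.82-fold for Cp and 2.12-fold for Trf. Its RNA span was also the widest, 3.53-fold for Slc40a1 against 3.31-fold for Slc25a37 and 3.15-fold for Steap3.

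**Figure D5:**
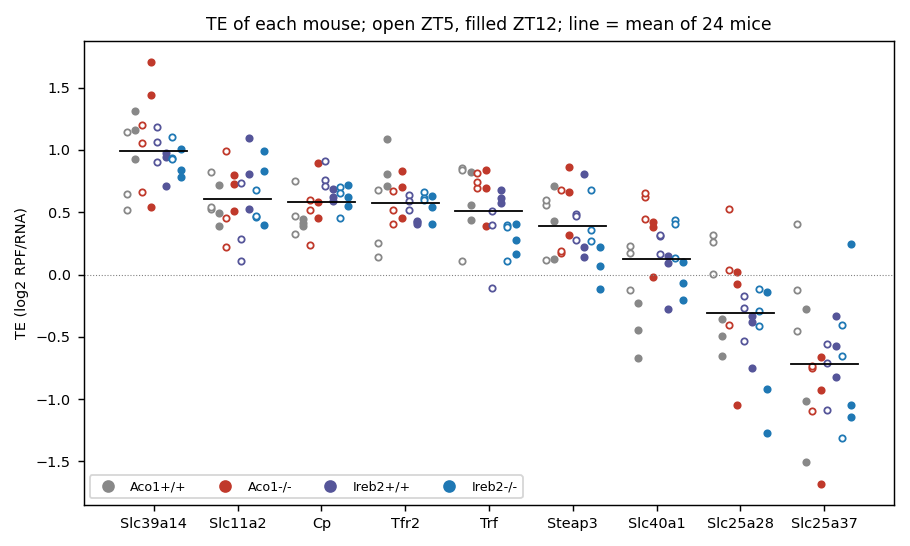
TE (log2 RPF/RNA) of each mouse for the 9 members, ordered by their mean over 24 mice, which is drawn as a line. Open points are ZT5, filled points ZT12, and colours the 4 genotypes. The mean falls from 0.99 for Slc39a14 to −0.72 for Slc25a37, and the lowest Slc40a1 points, −0.67 and −0.44, are Aco1+/+ livers at ZT12.

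Counts outside the CDS show what these measures leave out. Of all counts of a member over the 24 RPF libraries, the CDS held between 85.6% (Slc25a28) and 98.2% (Steap3), beside 94.4% over all genes. The 5′ UTR, where the IRE of Slc40a1 lies, held 3.48% of Slc40a1 RPF counts. For the other members it held between 0% (Slc25a37) and 6.05% (Slc11a2), beside 2.10% over all genes. Slc25a37 had 0 counts in this column in RNA as well, so its 0% need not mean that footprints were absent there. In RNA the 3′ UTR held 58.0% of Slc11a2, 60.3% of Slc39a14 and 55.0% of Slc25a37 counts, and their CDS 33.8%, 28.4% and 11.9%, so that for these 3 the RNA level of the CDS rests on the smaller part of their reads. A column of unknown content held 33.1% of Slc25a37 RNA counts, beside 11.7% over all genes. Its share was 35.8% at ZT5 and 28.3% at ZT12 in Aco1+/+ livers, and it was also lower at ZT12 in the other genotypes. This fall was not particular to Slc25a37. The share in RNA was lower at ZT12 in every genotype for Slc40a1, Slc39a14, Tfr2, Trf and Slc25a28 as well. It was not lower for Cp in Aco1+/+ or for Slc11a2 in Ireb2-/- livers, and Steap3 had no counts in this column.

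Other genes of iron handling, 25 of a list of 30 that the tables held, were tested in the same fits. They include the ferritin and IRP genes. Averaged over genotypes, 6 rose and 3 fell from ZT5 to ZT12 in RNA of the Aco1 line, and 5 rose and 1 fell in the Ireb2 line, where 14.4% and 8.28% of all genes passed. In RPF 6 rose and 3 fell, and 5 rose and 2 fell, where 22.2% and 17.2% of all genes passed. The metalloreductase Steap4, a relative of Steap3 in the same enzyme family, rose while Steap3 fell: by 0.89 (SE 0.14) in RNA of the Aco1 line, 0.69 (SE 0.12) in RNA of the Ireb2 line, and 1.07 (SE 0.17) and 0.56 (SE 0.13) in RPF. In RPF of the Aco1 line transferrin receptor 1 (Tfrc), the importer of transferrin-bound iron, rose by 2.01 (SE 0.36, adjusted p = 0.00345, edgeR), and the ferritin heavy chain gene Fth1 fell by 1.71 (SE 0.26, adjusted p = 0.00113). In RPF of the Ireb2 line Scara5, a ferritin receptor, rose by 2.32 (SE 0.25) and Pcbp2, an RNA-binding protein that also carries iron in the cytosol, by 0.55 (SE 0.10), and Mcoln1, which releases iron from lysosomes, rose by 0.59 (SE 0.11) and 0.45 (SE 0.10) in RPF of the Aco1 and Ireb2 lines. Between genotypes averaged over timepoints, the 1 gene of this list that passed in each line was the one knocked out, in RNA, RPF and TE for Aco1 and in RPF and TE for Ireb2. Of 9 genes of heme and hemoglobin scavenging 0 passed between genotypes. At most 0.299% of all genes passed in any comparison of genotypes, so a count of 0 is near that share.

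The genes whose RNA varied most like a member's over the 24 RNA libraries were taken without regard to function. For Slc39a14 they were Lrrc28 (Pearson r = 0.90 in RNA and 0.85 for the same pair over the 24 RPF libraries), Pus7 (0.86 and 0.74) and Lrrc58 (0.84 and 0.80). For Steap3 they were Plxnb2 (0.85 and 0.72), Amacr (0.84 and 0.58) and Serpinf2 (0.82 and 0.86). For Slc25a37 the nearest were Nipsnap3b, Keg1 and Vac14 (r between 0.81 and 0.82, and between 0.31 and 0.64 in RPF), and for Cp 4932438A13Rik, Cfhr2 and Itga1 (between 0.78 and 0.81, and between 0.33 and 0.64).

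Among the genes closest to Slc40a1 were Cnot6l and Med13 (r = 0.71 for both in RNA, and 0.26 and 0.31 in RPF). Slc11a2 was closest to Nme6, Dnajb9 and Map2k2 (0.72 to 0.73, and 0.07 to 0.69), and Trf to F2, Pcyt2 and Cox4i1 (0.79 to 0.86, and 0.14 to 0.67). Tfr2 was closest to Zscan2, Cfb and Gnb4 (0.69 to 0.71, and −0.51 to 0.20), and Slc25a28 to Ppp1r15b, Nrep and Slc5a6 (0.81 to 0.82, and −0.19 to 0.08). The libraries share groups, time of day and scaling, and no p is given, since each set is taken from the top 3 of all genes tested.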

How the data were processed

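RNA and RPF libraries of 24 livers were analysed. The authors trimmed adapters (cutadapt 3.5, per the labels), filtered reads by quality and length, removed rRNA and tRNA reads with Bowtie2 and mapped the rest with STAR 2.70f to GRCm38. The deposited values are raw counts per gene, not normalized, for each of 77 sequencing runs. The counting tool and strand setting are not given in the sources used here, so overlapping and antisense genes may share reads. No header names the count columns. Judged by their values, they hold 5′ UTR, CDS and 3′ UTR reads. Of the remaining columns, one is 0 in every row and the content of the other is unknown.

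Runs of a library were summed (29 libraries had 2). Chi-square over its degrees of freedom was between 0.981 and 1.10 for runs of the same library and between 2.30 and 55.3 for mice of the same group, which were counted as replicates. CDS counts were scaled by the upper quartile over 48 libraries, filtered with filterByExpr (minimum count 10, minimum total 15), and tested with edgeR's robust quasi-likelihood test in each line, whose 4 groups share the estimate of spread. TE was tested in 1 model of both libraries with a term for the mouse, since the labels name the same mouse for both. SE is the absolute log2 fold change divided by √F. Adjustment of p-values (Benjamini-Hochberg) was over 10696 genes, threshold 0.05. Log2 CPM used a prior count of 0.5. The fitting scripts were tested on simulated data.

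The members and lists were chosen with earlier results of these data known. All 9 members are named, and from each other list counts and, in a comparison, at most the 4 genes with the lowest adjusted p. For each member the 3 genes with the highest correlation are given, except for 1 gene that is not reported here. Averages over genotypes or timepoints and the comparison between lines were added after the data were seen. Positions are those of RefSeq for GRCm38, matched by symbol. Of the genes on the lists, 11 were not analysed here. Alternatives were TMM, DESeq2, no filter, the first run alone, all count columns, only the 6 mice compared, the replicate block, unpaired libraries, limma on TE and each mouse left out. Software was R 4.3.3, edgeR 4.0.16, limma 3.58.1, DESeq2 1.42.0, Python 3.11.15, NumPy 2.4.6, pandas 2.3.3 and Matplotlib 3.10.9.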

Additional observations from a re-analysis of the deposited data

How the results depend on the processing

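No member's fold change with an unadjusted p under 0.05 changed direction under any alternative. The counts of members past the threshold that moved by more than 1.5 times were these. With DESeq2, Aco1+/+ ZT12 against ZT5 in RNA gave 1 in place of 2, and TE averaged over genotypes of the Aco1 line 1 in place of 0. With the first run alone, ZT12 against ZT5 in RNA gave 0 in place of 2 in Aco1+/+, 1 in place of 3 in Aco1-/-, 1 in place of 0 in Ireb2+/+ and 3 in place of 6 averaged over the Aco1 line, RPF in Aco1+/+ gave 1 in place of 2, and Aco1-/- against Aco1+/+ TE at ZT12 gave 0 in place of 1. With only the 6 mice compared, RNA in Aco1-/- gave 0 in place of 3, TE at ZT12 gave 0 in place of 1 for Aco1 and 1 in place of 0 for Ireb2, and TE between timepoints gave 2 in Aco1+/+ and 1 in Ireb2-/- in place of 0. Unpaired libraries and limma each gave 0 in place of 1 for TE of Aco1-/- against Aco1+/+ at ZT12 and averaged. Without the filter, TE averaged over genotypes gave 1 in place of 0 in both lines, as did TMM in the Ireb2 line.

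Same-numbered mice of 2 groups are different animals, and their deviations from the group means correlated between −0.134 and 0.258, in none of 16 comparisons above 0.1 for all 3 numbers, so the numbers were not taken as pairs. Every mouse correlated best with its own number only between Ireb2+/+ and Ireb2-/- RPF at ZT12. With the replicate block, 1 member in place of 0 passed for RPF of Aco1-/- against Aco1+/+ at ZT12 and averaged (Slc40a1, 1.12 and 1.06, adjusted p = 0.0473 and 0.0273, edgeR) and for TE between timepoints averaged in each line (1 in place of 0), and Slc39a14 RNA in Aco1-/- was lost (0.67, adjusted p = 0.076).

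With 1 mouse left out, the counts ranged from 0 to 1 for RNA and RPF of Aco1-/- against Aco1+/+ averaged, RPF at ZT12, TE at ZT12 and averaged, the difference between lines in TE, RNA between timepoints in Aco1+/+, Aco1-/-, Ireb2+/+ and Ireb2-/-, TE in Aco1+/+ and TE averaged in the Ireb2 line. They ranged from 0 to 3 for RPF in Aco1+/+ and TE averaged in the Aco1 line, from 0 to 2 for RPF in Aco1-/-, from 1 to 2 for RPF in Ireb2+/+ and RNA averaged in the Ireb2 line, and from 1 to 3 for RPF in Ireb2-/-. Values of such fits are given only for members with an unadjusted p under 0.05 in the fit of all mice. Some members in these counts are therefore not named. Over all genes, calls of ZT12 against ZT5 in RNA of Aco1+/+ numbered 754, and 323 to 743 with 1 mouse left out, and 402 to 1056 under other settings, in RPF of Aco1-/- 1293 against 531 to 1600 and 676 to 1454, and in TE of Aco1-/- against Aco1+/+ at ZT12 10 against 4 to 58 and 0 to 33. The order of members by level per kb was not run for want of CDS lengths. Low CDS counts of Slc11a2, Steap3 and the mitoferrins limit their precision.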
